A study of Mus musculus with 8 samples.

Results

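Interferon-stimulated genes (ISGs) are the genes that a cell switches on when interferon binds its surface receptors. The 9 ISGs Isg15, Ifit1, Ifit3, Ifi27, Ifi35, Bst2, Ifitm2, Ifitm3 and Rsad2 were examined in brown adipose tissue (BAT), the fat depot in which rodents burn lipid to make heat. They were chosen by name, by matching the Ensembl identifiers of the deposited count table to mouse gene symbols. All 9 were found among the 31053 genes of the table, and all 9 passed the filter on low counts that left 9264 genes for testing.

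BAT of 4 wild-type (WT) and 4 db/db mice was profiled by bulk RNA-seq to learn how obesity alters its transcriptome. The labels give both groups the strain C57BL6/J and an age of 8 weeks, and no treatment. The study's methods state that tissues were harvested after the mice had been fasted. In the methods, all mice were males and the db/db mice were B6.BKS(D)-Leprdb/J. The list of resources gives db/db a stock number without a strain name. The strain background of the db/db mice is uncertain to that extent. The study's methods name different suppliers for WT and db/db mice and its list of resources names the same one, so whether genotype and source coincide is uncertain. The db/db mice carry the leptin receptor mutation in every tissue and become obese, and differences between the groups are therefore not those of BAT cells lacking the receptor alone. The labels name the cell type as stromal vascular fraction, the part of fat left once mature adipocytes are removed. Transcripts of adipocytes were abundant in all libraries, however: Ucp1, the uncoupling protein of brown adipocytes, averaged 2248 ± 387 CPM (counts scaled to a common library size) in WT and 1429 ± 457 CPM in db/db, and Adipoq, which encodes adiponectin, 1534 ± 240 and 1909 ± 185 CPM (SD, n = 4 each). The data thus went against that label, and the samples are called BAT here.

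The WT libraries held 2374079 to 2615009 counts and the db/db libraries 2382722 to 3240074, which puts the limit of detection, taken as 3 counts, between 0.902 and 1.33 CPM. Macrophage and skeletal muscle markers also differed between the genotypes. The summed level of 13 macrophage markers was 204 to 252 CPM in WT and 870 to 1510 CPM in db/db, with 11 of the 12 tested markers higher in db/db. The summed level of 14 skeletal muscle markers was 457 to 1620 CPM in WT and 2370 to 11800 CPM in db/db, with 14 of 14 higher, and the library db/db 1 held the highest sum of both lists. In bulk samples, fewer cells of a type and less RNA per cell cannot be told apart.

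Type I interferons (the alpha and beta families) signal through the receptor chains Ifnar1 and Ifnar2, the kinases Jak1 and Tyk2 and a complex that includes Stat2 and Irf9. This complex binds the interferon-stimulated response element (ISRE) in the promoters of ISGs. Interferon gamma signals through the receptor chains Ifngr1 and Ifngr2, and its target promoters often hold the gamma-activated site (GAS). The ISG products limit viruses at different steps, and many of them are also made at a low level in cells that meet no virus.

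The promoters of 3 members are shown because they carry the interferon response element in different orientations and numbers. Each sequence is the 160 bases just before the transcription start (RefSeq, GRCm38.p6), written 5′ to 3′ on the strand of the gene. Capitals mark the ISRE core, taken as GAAA followed after 2 bases of any kind by another GAAA, on either strand. Isg15 is read from chr4:156200819-156200978 on the minus strand, Ifit1 from chr19:34640729-34640888 on the plus strand and Ifitm2 from chr7:140955962-140956121 on the minus strand.
Isg15: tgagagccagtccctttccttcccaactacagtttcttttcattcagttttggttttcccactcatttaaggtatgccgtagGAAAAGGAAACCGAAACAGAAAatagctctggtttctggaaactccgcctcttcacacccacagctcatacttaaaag
Ifit1: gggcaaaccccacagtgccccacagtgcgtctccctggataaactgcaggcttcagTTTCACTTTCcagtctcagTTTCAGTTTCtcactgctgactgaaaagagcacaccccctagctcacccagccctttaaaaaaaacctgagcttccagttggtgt
Ifitm2: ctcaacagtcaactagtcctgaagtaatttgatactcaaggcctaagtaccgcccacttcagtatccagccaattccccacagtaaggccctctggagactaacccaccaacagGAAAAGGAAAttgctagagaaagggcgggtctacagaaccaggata
In Isg15, 3 overlapping matches began 78, 72 and 66 bases before the start. Ifit1 held a pair of matches on the opposite strand, 104 and 85 bases before the start, and Ifitm2 held 1 match, 46 bases before it.

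In windows of 300 bases around the start, 8 of the 9 members had a RefSeq promoter to search, and Ifi27 was the one without. The ISRE core was found in 7 of these 8 promoters (87.5%), beside 1131 of all 32851 promoters of the same length (3.44%), and the 1 without it was Ifi35. Bst2 held overlapping matches at 130 and 124 bases before the start, Ifit3 held 2 matches at 156 and 122 bases, Rsad2 held 1 at 120 bases, and those of Ifitm3 lay just after the start. For Bst2 alone, the bases after the RefSeq start were not found in an annotated transcript, so its distances are less certain. The GAS motif (TTCNNNGAA on either strand) was found in Bst2, Ifi35 and Ifitm3, which is 3 of 8 promoters (37.5%), beside 8.3% of all promoters, and in Bst2 and Ifitm3 it overlapped an ISRE match. Further ISGs held the ISRE core in 32 of 67 promoters (47.8%). These matches are letters in a window and do not show that a factor bound there.

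**Figure D1:**
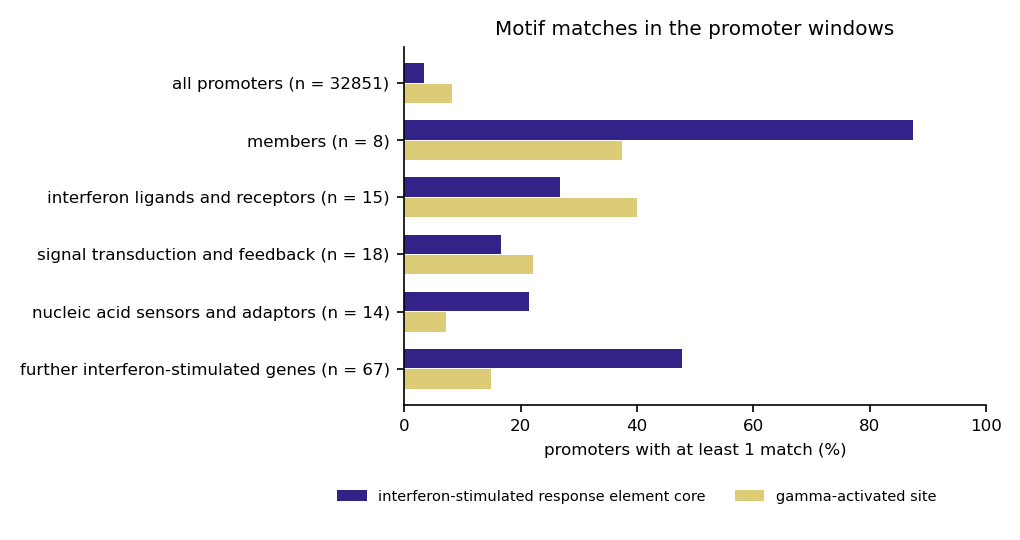
Share of 300-base promoter windows with at least 1 match to the ISRE core (dark bars) or to the GAS motif (light bars), in percent, for all RefSeq promoters, the 9 ISGs (8 with a promoter) and 4 further lists of interferon genes. The ISRE core was in 87.5% of the members' promoters and in 3.44% of all promoters.

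The measured differences of the 9 ISGs between the genotypes were not all in the same direction. Ifitm3 and Ifitm2, which encode membrane proteins that hold back virus fusion in endosomes, were 1.81-fold and 1.68-fold higher in db/db, and Ifi27 fell to 0.756 of its WT level. The other 6 members, Isg15, Ifit1, Ifit3, Bst2, Ifi35 and Rsad2, did not pass the threshold. So 3 of 9 members were called, 2 higher and 1 lower, at an adjusted p of 0.05 (quasi-likelihood F test of edgeR, Benjamini-Hochberg adjustment over all 9264 genes). Over all genes tested, 27.7% were called, 15.8% higher and 11.9% lower in db/db, and 3 of 9 is near that background. The median log2 fold change of the members was 0.69, with 6 of 9 above 0, and that of all genes tested was 0.0066.

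**Figure D2:**
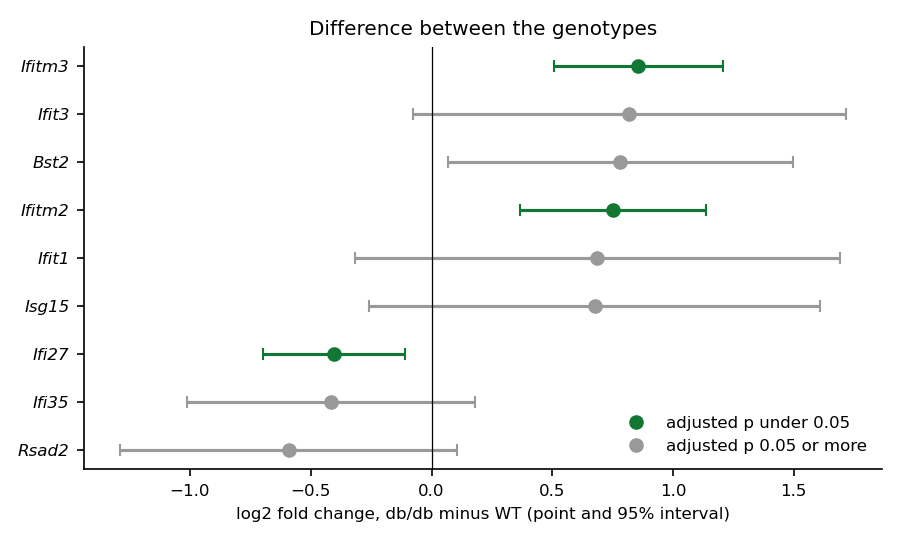
Log2 fold change of each ISG, db/db minus WT, as a point with its 95% interval from edgeR, with genes at an adjusted p under 0.05 in green. Ifitm3 and Ifitm2 lie above 0 and Ifi27 below it, while the intervals of Isg15, Ifit1, Ifit3, Ifi35 and Rsad2 cross 0.

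Ifitm3 (ENSMUSG00000025492, chromosome 7, 141009586 to 141010770, minus strand, mm10) had the smallest p of the 9. Its level was 66.8, 75.5, 71.8 and 62.4 CPM in WT 1 to 4 and 174, 103, 110 and 113 CPM in db/db 1 to 4. Every db/db library was above every WT library, and db/db 1 stood above the other 3. The means were 69.1 ± 5.75 and 125 ± 32.7 CPM (SD, n = 4 each), a log2 fold change of 0.86 (SE 0.17, 95% interval 0.51 to 1.21, edgeR adjusted p = 0.000825). Without db/db 1 the log2 fold change was 0.65, with an edgeR adjusted p of 0.00203.

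Ifitm2 (ENSMUSG00000060591, chromosome 7, 140954837 to 140955987, minus strand) lies in the same gene cluster as Ifitm3, with Ifitm1 between them. Its level was 40.1, 37.1, 30.4 and 22.5 CPM in the WT libraries and 63.5, 53.4, 53.6 and 48.4 CPM in the db/db libraries. Here too the genotypes did not overlap. The means were 32.5 ± 7.81 and 54.7 ± 6.32 CPM (SD, n = 4 each), with a log2 fold change of 0.75 (SE 0.18, 95% interval 0.36 to 1.14, edgeR adjusted p = 0.00513). An exon of Ifitm2 overlaps the predicted gene Gm45717 on the same strand, which held 0 counts in all libraries. Reads in the shared stretch may have been dropped as ambiguous, and the level of Ifitm2 is uncertain to that extent. That paralog, Ifitm1, held 0 to 7 counts per library and was not tested.

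Ifi27 (ENSMUSG00000064215, chromosome 12, 103434211 to 103440239, plus strand), a small hydrophobic membrane protein induced by type I interferon, was by far the most abundant member. Its level was 1130, 1300, 995 and 1180 CPM in the WT libraries and 745, 871, 823 and 1040 CPM in the db/db libraries. The genotypes overlapped, since db/db 4 exceeded WT 3. The means were 1151 ± 125 and 870 ± 125 CPM (SD, n = 4 each), and the log2 fold change was -0.40 (SE 0.14, 95% interval -0.70 to -0.11, edgeR adjusted p = 0.0388). This call lost significance when any 1 of 6 libraries was left out, all except WT 3 and db/db 4, with edgeR adjusted p-values up to 0.116. Its paralog Ifi27l2a, which shares the name and part of the sequence, averaged 190 ± 64.5 CPM in WT and 147 ± 33.5 CPM in db/db (SD, n = 4 each), with a log2 fold change of -0.37 (SE 0.21) and an edgeR adjusted p of 0.211. Ifi27l2a passed without WT 4 (log2 fold change -0.56, edgeR adjusted p of 0.0429) and when every gene with at least 1 count was tested (0.0391). A further paralog, Ifi27l2b, held 0 to 2 counts per library.

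The calls of Ifitm3, Ifitm2 and Ifi27 were all lost when the skeletal muscle score of each library was added as a covariate, with edgeR adjusted p-values of 0.419, 0.201 and 0.713. That score was itself higher in db/db and so shares the genotype difference. The log2 fold change was then 0.43 for Ifitm3, 0.77 for Ifitm2 and -0.20 for Ifi27. Whether muscle or macrophage RNA has a part in these differences was not tested.

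**Figure D3:**
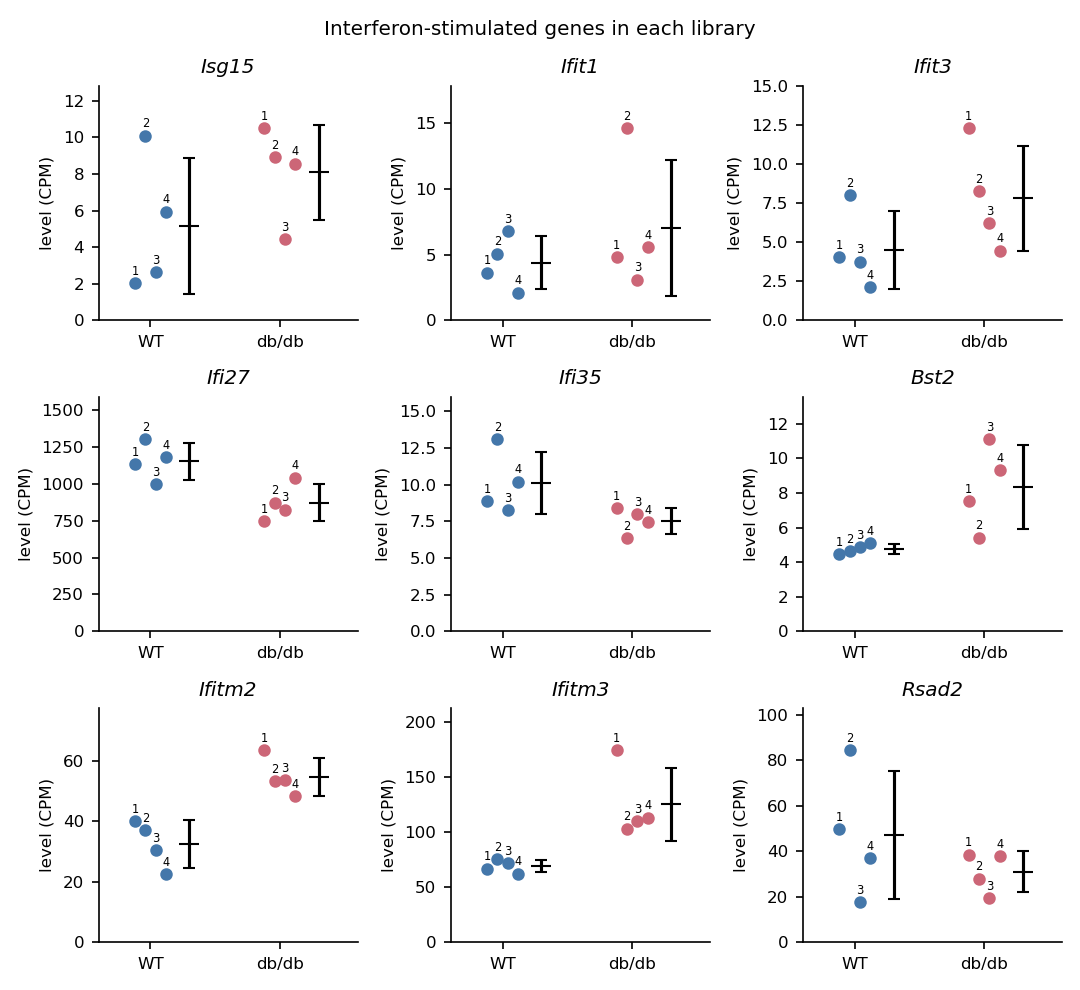
Level of each ISG in each library, in CPM on a linear axis from 0, with blue points for WT 1 to 4, red points for db/db 1 to 4, and the mean with its SD (n = 4) beside the points. The genotypes do not overlap for Bst2, Ifitm2 and Ifitm3.

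Bst2 (ENSMUSG00000046718, chromosome 8, 71534255 to 71537456, minus strand) encodes tetherin, which holds budding virus particles at the cell surface. Its level was 4.45, 4.64, 4.88 and 5.09 CPM in WT and 7.52, 5.41, 11.1 and 9.3 CPM in db/db. The 4 WT libraries were close together and all lay under the 4 db/db libraries. The means were 4.77 ± 0.280 and 8.33 ± 2.43 CPM (SD, n = 4 each), and the log2 fold change of 0.78 (SE 0.34, 95% interval 0.07 to 1.5) did not pass after adjustment (edgeR adjusted p = 0.0962). These levels rest on 11 to 25 counts per library. Counted over the members, 3 of 9 did not overlap between the genotypes, beside 28.1% of all genes tested.

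Isg15, Ifit1 and Ifit3 are standard readouts of the type I interferon response. Isg15 (ENSMUSG00000035692, chromosome 4, 156199424 to 156200818, minus strand) is a ubiquitin-like protein that is attached to other proteins. Its level was 2.02, 10.1, 2.63 and 5.94 CPM in WT and 10.5, 8.91, 4.43 and 8.56 CPM in db/db. WT 2 and WT 4 fell within the db/db range, and WT values spread 5.01-fold. The means were 5.18 ± 3.72 and 8.11 ± 2.6 CPM (SD, n = 4 each), with a log2 fold change of 0.68 (SE 0.44, 95% interval -0.26 to 1.61, edgeR adjusted p = 0.281). Leaving out WT 2 raised the log2 fold change to 1.21, leaving out WT 1 or WT 3 lowered it to 0.39 or 0.43, and none of these passed in edgeR.

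Ifit1 (ENSMUSG00000034459, chromosome 19, 34640871 to 34650009, plus strand) encodes a protein that binds foreign RNA by its cap. Its level was 3.64, 5.06, 6.76 and 2.12 CPM in WT and 4.81, 14.6, 3.1 and 5.58 CPM in db/db. Only db/db 2 lay above the WT range. The means were 4.40 ± 1.98 and 7.03 ± 5.17 CPM (SD, n = 4 each), with a log2 fold change of 0.69 (SE 0.48, 95% interval -0.32 to 1.69, edgeR adjusted p = 0.310). This value rested on db/db 2, without which the log2 fold change was 0.036.

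Ifit3 (ENSMUSG00000074896, chromosome 19, 34583531 to 34588731, plus strand), a partner of Ifit1 encoded in the same cluster, measured 4.05, 8.02, 3.76 and 2.12 CPM in WT and 12.3, 8.27, 6.21 and 4.46 CPM in db/db. WT 2 fell within the db/db range. The means were 4.49 ± 2.50 and 7.82 ± 3.39 CPM (SD, n = 4 each), and the log2 fold change was 0.82 (SE 0.43, 95% interval -0.08 to 1.71, edgeR adjusted p = 0.166). It was 1.23 without WT 2 and 0.50 without db/db 1, and neither passed in edgeR. Ifit3b, a near copy of Ifit3 that may share its reads, held 8, 7, 6 and 5 counts in WT and 27, 15, 8 and 4 counts in db/db and was not tested. Other genes of the cluster held few reads, with 0 to 7 counts for Ifit2, 0 to 3 for Ifit1bl1 and 0 to 3 for Ifit1bl2. The levels of Isg15, Ifit1 and Ifit3 rest on as few as 5 counts in a library, and their intervals include both no difference and more than a doubling. Whether the low counts or the spread between animals set the width of these intervals was not tested.

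Rsad2 (ENSMUSG00000020641, chromosome 12, 26442746 to 26456452, minus strand) encodes viperin, a radical SAM enzyme of the endoplasmic reticulum and lipid droplets. Its level was 49.8, 84.4, 17.7 and 36.9 CPM in WT and 38.5, 28, 19.5 and 37.9 CPM in db/db. The db/db libraries all fell inside the WT range, which spread 4.78-fold. The means were 47.2 ± 28.1 and 31.0 ± 9.05 CPM (SD, n = 4 each), with a log2 fold change of -0.59 (SE 0.33, 95% interval -1.29 to 0.10, edgeR adjusted p = 0.199). The value depended on single WT libraries. Without WT 2 the log2 fold change was -0.17, and without WT 3 it was -0.89 with an edgeR adjusted p of 0.0231.

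Ifi35 (ENSMUSG00000010358, chromosome 11, 101448407 to 101458698, plus strand), a leucine zipper protein of the cytosol, measured 8.9, 13.1, 8.27 and 10.2 CPM in WT and 8.42, 6.36, 7.98 and 7.44 CPM in db/db. Of the db/db libraries, db/db 1 alone overlapped the WT range. The means were 10.1 ± 2.14 and 7.55 ± 0.888 CPM (SD, n = 4 each), with a log2 fold change of -0.42 (SE 0.28, 95% interval -1.01 to 0.18, edgeR adjusted p = 0.298). An exon on the opposite strand belongs to the predicted gene Gm11626, which held 0 counts in all libraries.

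Levels were compared between the members per kilobase of exon. In WT the order was Ifi27 at 784 CPM per kb, Ifitm3 at 102, Ifitm2 at 49.7, Rsad2 at 10.9, Isg15 at 6.85, Ifi35 at 5.85, Bst2 at 5.28, Ifit3 at 2.57 and Ifit1 at 1.66. Ifi27, Ifitm3 and Ifitm2 were each separated from the next gene in both genotypes. Neighbours from Rsad2 to Bst2 overlapped across the WT libraries, as did Ifit3 and Ifit1. In db/db the first 3 ranks were the same, at 593, 184 and 83.6 CPM per kb, and from Isg15 at 10.7 CPM per kb downward every neighbouring pair overlapped. Whether reads cover whole transcripts or only their ends is not given in the sources used here, and in the latter case values per kilobase understate long transcripts such as Rsad2.

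Ifi27 alone made up 84.5% to 88.9% of the summed CPM of the 9 members in WT and 70% to 81.6% in db/db. The sum of the other 8 was 180, 238, 146 and 147 CPM in WT and 319, 228, 216 and 235 CPM in db/db. WT 2 fell within the db/db range of this sum, and db/db 1 was the highest library.

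Within each genotype the members did not follow a single order of libraries. WT 2 was the highest WT library for 6 of 9 members, and db/db 1 the highest db/db library for 6 of 9. Bst2 and Ifit1 had their highest db/db values in db/db 3 and db/db 2. In the deviations from the genotype means over the 8 libraries, the closest pair was Ifit3 and Ifitm2 (r = 0.784), and Ifit1 and Bst2 were the most opposed (r = -0.771). These are descriptions over few libraries that share depth and composition, and for the low genes they rest on small counts.

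**Figure D4:**
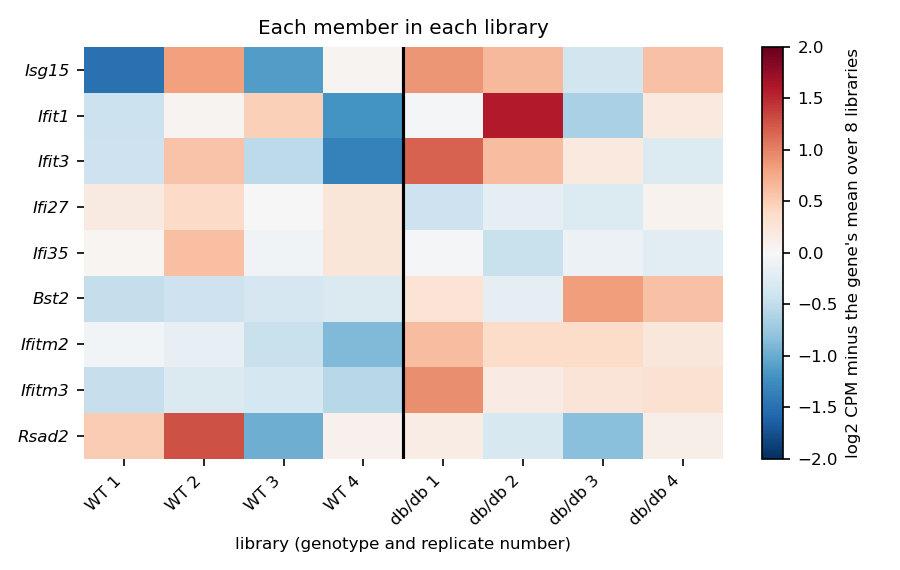
Log2 CPM of each ISG in each library minus the mean of that gene over the 8 libraries, in rows of genes and columns of libraries, with red above and blue below the mean and a line between WT and db/db. For Ifitm2, Ifitm3 and Bst2 all WT libraries are below all db/db libraries, while for the other 6 genes the genotypes overlap.

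The genes upstream of the ISGs were examined to see whether interferon and its signalling differed. Of 16 ligands and receptors listed, 11 had 0 counts in all 8 libraries: Ifnb1, Ifna1, Ifna2, Ifna4, Ifna5, Ifne, Ifnk, Ifng, Ifnl2, Ifnl3 and the lambda receptor Ifnlr1. At this depth that allows levels up to 0.902 to 1.33 CPM per library. Among the 5 tested, 1 was called, the ligand-binding chain of the interferon gamma receptor. Ifngr1 measured 119, 141, 106 and 126 CPM in WT and 146, 161, 216 and 169 CPM in db/db, without overlap, a log2 fold change of 0.49 (± 0.15 SE, adjusted p = 0.0190 in edgeR). This call was lost without WT 1, WT 3 or db/db 3. The receptor chains Ifngr2 (log2 fold change 0.55, adjusted p = 0.114), Ifnar1 (-0.22, 0.681) and Ifnar2 (-0.07, 0.772) did not pass in the same edgeR fit. Nor did Il10rb, the shared chain of the interferon lambda and interleukin-10 receptors, which was named after its values were seen (log2 fold change 0.54, SE 0.20, edgeR adjusted p of 0.0545). It passed with a filter of at least 10 counts in every sample and without db/db 3.

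Of 18 signalling and feedback genes, 14 were tested and 2 were called. Stat2, a subunit of the complex that binds the ISRE, was at 5.92 ± 2.18 CPM in WT and 5.98 ± 3.47 CPM in db/db (SD, n = 4 each), with a log2 fold change of 0.01 (95% interval -0.90 to 0.92, edgeR adjusted p = 0.989), and the sign of the Stat2 value changed with the scaling. Irf9 measured 0.23 on the same scale (edgeR adjusted p = 0.516), and its exons overlap Rnf31, with 10 to 34 counts per library.

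Irf8, a factor of myeloid cell development that interferon gamma induces, was higher in db/db at 12.5 ± 4.79 CPM against 5.64 ± 1.71 CPM in WT (SD, n = 4 in both, log2 difference 1.17 ± 0.33 SE, adjusted p = 0.0143 in edgeR), without overlap. Without db/db 1 the adjusted p of Irf8 was 0.0860 in edgeR. Irf3, which switches on the interferon beta gene after virus sensing, fell from 21.5 ± 4.77 CPM in WT to 13.8 ± 1.54 CPM (SD, n = 4 in both, log2 difference -0.64 ± 0.23 SE, adjusted p = 0.0442 in edgeR). The Irf3 call was lost with DESeq2 (adjusted p = 0.0592), limma-voom (0.0615), a filter of at least 10 counts in every sample (0.0622) and the replicate block (0.0583), and without any 1 library other than WT 3 and db/db 1. An exon of Bcl2l12 on the opposite strand, with 2 to 12 counts per library, overlaps it.

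Of 18 nucleic acid sensors and adaptors, 10 were tested and only Tlr3, the endosomal receptor for double-stranded RNA, was called. It measured 1.62, 3.38, 1.88 and 3.4 CPM in WT and 6.62, 8.91, 4.43 and 5.95 CPM in db/db, without overlap (log2 difference 1.35 ± 0.41 SE, adjusted p = 0.0195 in edgeR). These values rest on 4 to 28 counts per library, and the adjusted p of Tlr3 was 0.0503 with DESeq2. No WT library held more than 8 counts, so Tlr3 passed the filter on low counts through the db/db libraries. The call was also lost without WT 1, WT 3 or db/db 2 in edgeR. The 3 lists together gave 4 calls among 29 tested genes, 3 higher and 1 lower, beside 27.7% called over all genes. With at least 10 counts in every sample they gave 5 calls among 20 tested genes, all higher in db/db.

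A wider list of 60 ISGs was set beside the 9. Of these, 57 were in the table, 28 were tested, and 5 were called, all higher in db/db. The 29 that were not tested included Oas1a, Oas2, Oas3, Oasl2, Mx1, Ifi44 and Cmpk2. Since all 5 calls were higher, the share to set beside 5 of 28 is the 15.8% of all genes tested that were higher. In either direction 27.7% of all genes tested were called. The median log2 fold change of the 28 was 0.34, with 22 of them above 0. Over all genes tested the median was 0.0066, with 4667 of 9264 above 0. Shisa5, a protein of the endoplasmic reticulum, measured 33.2, 38, 47 and 48 CPM in WT and 89.6, 63.3, 70.9 and 75.5 CPM in db/db (log2 difference 0.85 ± 0.17 SE, adjusted p = 0.000842 in edgeR). Slfn2, a schlafen protein that keeps T cells quiescent, differed the most, at 2.82 ± 2.74 CPM in WT and 10.9 ± 4.87 CPM in db/db (SD, n = 4 in both, log2 difference 1.98 ± 0.52 SE, adjusted p = 0.00883 in edgeR), with 1 count in WT 3. Its log2 fold change was 2.85 without WT 2 and 1.58 without WT 3, and it passed in edgeR whichever single library was left out. Slfn2 held 5, 16, 1 and 5 counts in WT and 56, 29, 12 and 33 counts in db/db. It thus passed the filter on low counts mainly through the db/db libraries, where it was higher.

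Lgals9, a galectin, rose from 8.27 ± 2.20 CPM in WT to 16.7 ± 5.51 CPM (SD, n = 4 in both, log2 difference 1.03 ± 0.30 SE, adjusted p = 0.0163 in edgeR). Dtx3l, a ubiquitin ligase that pairs with Parp9, rose from 12.4 ± 1.69 CPM in WT to 22.3 ± 7.28 CPM (SD, n = 4 in both, log2 difference 0.84 ± 0.26 SE, adjusted p = 0.0220 in edgeR). Dtx3l and Parp9 overlap on opposite strands, so their reads may not be told apart if counting ignored the strand. Lgals9 lost its call without WT 3 or db/db 1, and Dtx3l without any of WT 1, WT 2, WT 4, db/db 1 and db/db 3. The fifth, Lgals3bp, a secreted glycoprotein named after its values were seen, was also higher (log2 difference 0.82 ± 0.25 SE, adjusted p = 0.0210 in edgeR). Lgals3bp lost its call without WT 2, WT 4 or db/db 1. All calls in these 4 lists were lost with the skeletal muscle covariate, but the sizes moved differently. The log2 fold change was then 0.50 for Ifngr1, -0.98 for Irf3, 1.15 for Tlr3 and 1.42 for Slfn2, and it was 0.28 for Irf8, 0.56 for Lgals9, 0.49 for Shisa5 and 0.18 for Dtx3l. The standard errors of these 8 genes were larger in that fit.

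**Figure D5:**
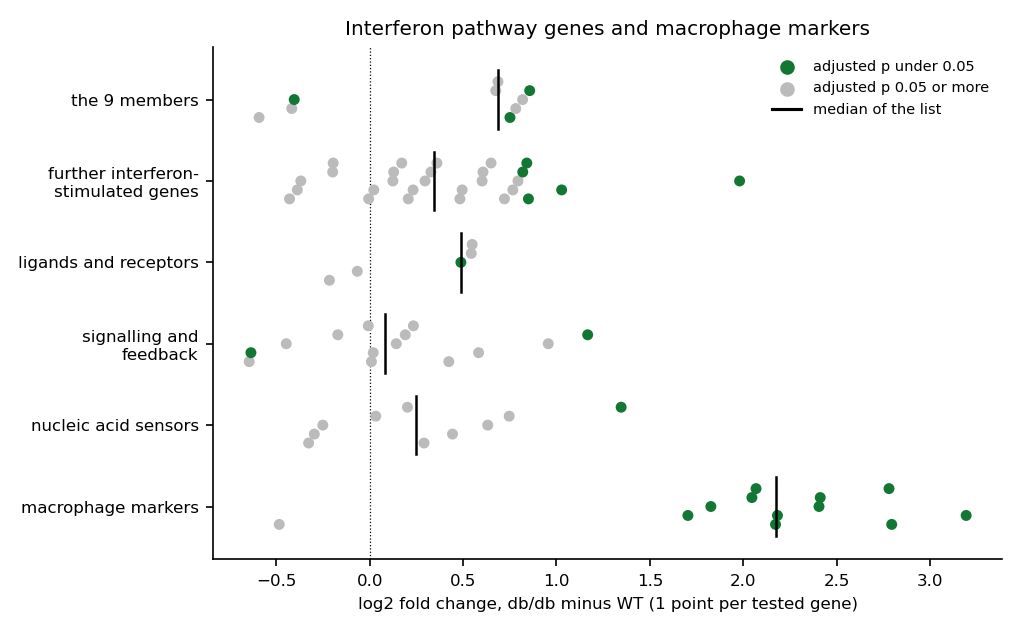
Log2 fold change, db/db minus WT, of every tested gene of the 9 ISGs, 4 further interferon lists and the macrophage markers, with genes at an adjusted p under 0.05 in green and a line at the median of each list. The medians were 0.69 for the 9 ISGs, 0.34 for further ISGs and 2.18 for the macrophage markers.

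Markers of other cells that respond to interferon were measured beside these lists. Summed T and NK cell markers were at 2.02 to 11 CPM in WT and 2.98 to 16.2 CPM in db/db, with none of 10 reaching the filter. Neutrophil markers summed to 0.752 to 12.3 and 23 to 26.8 CPM, and B cell markers to 3.82 to 10.1 and 16.4 to 82.1 CPM, with Cd79a at 0 in all libraries. Dendritic cell markers summed to 158 to 196 and 145 to 194 CPM, with 0 of 2 tested called by edgeR. Nearly all of that sum was Tcf4 and Zbtb46, which other cells also express, while Siglech, Ccr9, Flt3, Xcr1, Cd209a and Clec9a held 0 to 5 counts per library. Endothelial markers summed to 429 to 488 and 322 to 386 CPM, with 2 of 8 lower in db/db, and fibroblast markers to 480 to 600 and 934 to 1950 CPM, with 7 of 7 higher. The 8 markers of lipid-associated macrophages summed to 4650 to 6190 CPM in WT and 3830 to 4840 CPM in db/db, with 6 higher and 1 lower of 7 tested, and the list includes Lpl and Cd36, which adipocytes also express. Of 9 brown adipocyte markers, 7 were tested, 2 were higher and 4 lower in db/db. The 2 higher were Fabp4 and Plin1, and the 4 lower were Ucp1, Cidea, Cox8b and Ppargc1a. The sums of the list were 15300 to 21400 CPM in WT and 16500 to 22300 CPM in db/db. Fabp4 was the largest part of them, with means of 7789 CPM in WT and 12193 CPM in db/db, so the sums do not show the fall of the 4 lower genes. The part of these cells in the levels of the ISGs was not tested.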

How the data were processed

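BAT RNA of 8 mice was sequenced as single-end mRNA libraries by a commercial service. The authors' methods name bbduk, STAR and HTSeq-count on mm10, whereas the submitters' processing notes name Trimmomatic, HISAT2 and DESeq2 on GRCm38/mm10, so the aligner behind the counts is uncertain. The authors deposited raw counts per Ensembl gene. Whether strand or molecular identifiers were used is not given in the sources used here, so PCR copies may be included. Detection floors cover counting error only, whereas the intervals of fold changes include the spread between libraries. The deposited normalized values and the sample sheet were not used.

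Of 31053 genes, 30934 were matched to GENCODE M21 (mm10). Genes were filtered by filterByExpr (minimum count 10, minimum total 15), scaled by TMM and fitted on genotype alone in edgeR (version 4.0.16, under R 4.3.3), whose quasi-likelihood F test was used. P-values were adjusted by Benjamini-Hochberg over all 9264 genes, with a threshold of 0.05. CPM are counts over the total of the tested genes times the TMM factor. Standard errors were derived from the F statistic. Genotype and replicate number came from the sample titles. The design text calls the samples biological replicates.

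The members and the gene lists were chosen with earlier results of these data known. All members were named, with up to 4 called genes of each direction per interferon list, Ifnar1, Ifnar2, Ifngr1, Ifngr2, Stat2, Irf9 and the members' paralogs. A gene that this rule also names is not reported here. Oas1b, Mx2 and Ifi30 were not matched. Alternatives were DESeq2 1.42.0, limma-voom (limma 3.58.1), 4 other scalings, 2 other filters, the replicate block, a skeletal muscle covariate and leaving out each library. The procedures were tested on simulated data. Promoters came from RefSeq (GRCm38.p6) and figures were drawn with matplotlib.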

Additional observations from a re-analysis of the deposited data

Results flagged for a closer look

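In db/db 1, Ifitm3 was at 174 CPM, while the other 3 db/db libraries lay between 103 and 113 CPM, a gap of 0.853 of the whole range which is above Dixon's 95% critical value for 4 samples. Over the 18 sets of 4 libraries examined, 0.9 would be expected past this value by chance, and 1 was found. The same library held the highest summed level of macrophage markers (1510 CPM), skeletal muscle markers (11800 CPM) and fibroblast markers (1950 CPM) of all 8 libraries, and the part of these in the Ifitm3 level was not tested. Without db/db 1, Ifitm3 kept a log2 fold change of 0.65 (edgeR adjusted p = 0.00203).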

How the results depend on the processing

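The count of 3 members called was kept by DESeq2, limma-voom, the other scalings and the replicate block. It was 4 when every gene with at least 1 count was tested, where Rsad2 passed (adjusted p = 0.00678 in edgeR). With at least 10 counts in every sample it was 3 of 6 tested, with Bst2 passing (edgeR adjusted p = 0.0365) and Ifi27 not (0.0640), while Isg15, Ifit1 and Ifit3 were no longer tested. Leaving out 1 library gave 2 to 4 members, 4 to 5 further ISGs, 2 to 5 pathway genes and 2236 to 2483 genes in all.

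With the skeletal muscle score as covariate, 601 genes were called in place of 2568 (443 higher and 158 lower, against 1466 and 1102), and 0 members, 0 further ISGs and 0 pathway genes by edgeR. With every gene of at least 1 count tested, 8 further ISGs and 7 pathway genes were called. Of 159 comparisons of members under alternatives, 146 kept direction and side of the threshold, 10 lost the call, 3 gained it and 0 changed sign. Over the 23 tested genes of the naming rule these were 348, 43, 5 and 12 of 408.

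The changes of sign concerned Stat2, whose log2 fold change was near 0. It was at -0.020 with DESeq2, -0.12 with limma-voom, -0.00036 with RLE factors, -0.016 with upper quartile factors, -0.022 with library totals only, -0.0060 with TMM without mitochondrially encoded genes, -0.035 with every gene of at least 1 count, -0.070 with the replicate block and -0.43 to 0.27 without 1 library. The cause was not tested.

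The replicate numbers 1 to 4 belong to different animals, and deviations of same-numbered libraries correlated at 0.0383, 0.0490, -0.0781 and -0.0137, so the numbers do not pair the samples. With the replicate block, 2557 genes, 3 members, 5 further ISGs and 4 pathway genes were called, with Jak1 in place of Irf3. No test of members removed by the filter was needed, since all 9 passed it.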

Other observations

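Irf5, an interferon regulatory factor active in macrophages, was named after its values were seen. It did not reach the count filter of the edgeR fit reported and so has no value there, but it was called with DESeq2 and when every gene with at least 1 count was tested. It held 0, 2, 1 and 0 counts in WT 1 to 4 and 21, 11, 11 and 4 counts in db/db 1 to 4.

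Cxcl10, an interferon-induced chemokine of the wider list, was likewise named after its values were seen and did not reach the filter of the edgeR fit reported. It held 5, 7, 8 and 0 counts in WT 1 to 4 and 9, 24, 15 and 25 counts in db/db 1 to 4. It was called higher in db/db with DESeq2, when every gene with at least 1 count was tested, and without WT 2, WT 3 or db/db 1. Of the same list, Xaf1 was called higher when every gene with at least 1 count was tested and without db/db 3, and Iigp1 was called lower without db/db 1.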
